A study of Mus musculus with 6 samples.

Results

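The p53 response genes are Trp53, which encodes the tumour suppressor p53, and 31 genes that p53 is known to switch on or that act beside it. They were taken as a list of 32 names, chosen with earlier results of these data known. All were found among the 21883 protein-coding genes of the RefSeq table for GRCm38.p6, the assembly also called mm10. p53 is kept scarce by the ligase Mdm2, and accumulates after DNA damage or stalled replication. It then acts as a transcription factor: it stops the cell cycle through Cdkn1a, starts apoptosis through genes such as Bbc3, raises repair factors, and switches on its own inhibitors. In fibroblasts the arrest arm of this response is known to be prominent.

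DNA ends were mapped with BrITL, in which broken ends are labelled with biotin, pulled down with streptavidin and sequenced. All cells were passage-immortalised mouse embryonic fibroblasts that were ATR+/- and expressed Bcl-xL, a protein that blocks apoptosis. The treated cells were kept for 18 h in 1 µM ATR-45, which blocks the checkpoint kinase ATR, and 0.2 µM aphidicolin, which slows replicative polymerases (called ATRi+APH). The control cells had DMSO, the vehicle, for 18 h. For either condition 2 pull-downs and 1 input were sequenced. The 6 samples are represented by 2 pooled peak lists, 491 peaks for ATRi+APH and 6444 peaks for DMSO, so no value below has a replicate error and nothing was tested between the conditions. Fibroblasts immortalised by passage often lose p53 or ARF function, and the sources used here do not say whether these cells kept p53. Peak lists of DNA ends hold no expression values, so neither the cell type nor the activity of p53 could be checked against marker genes.

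A gene was counted where the summit of a peak, its highest point, lay inside the gene body or within 1 kb of an end. Of the 32 genes, 0 had an ATRi+APH summit and 19 had a DMSO summit (59.4%, exact Clopper-Pearson 95% interval 40.6 to 76.3%). By the same rule 1.16% of all protein-coding genes were counted in the ATRi+APH list and 23.8% in the DMSO list. At those shares 0.371 and 7.62 of 32 genes would be counted. The same exact interval for 0 of 32 reaches 10.9%, so the ATRi+APH result cannot be told apart from the 1.16% of all coding genes. These intervals cover counting error only and treat genes as independent. They do not cover the choice of the genes, which was made with earlier results of these data known. Gene length was alike, with a median of 17.3 kb for the 32 genes and 17.2 kb for all coding genes. The genes were not matched on other traits, and promoter composition, given below, differed.

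**Figure D1:**
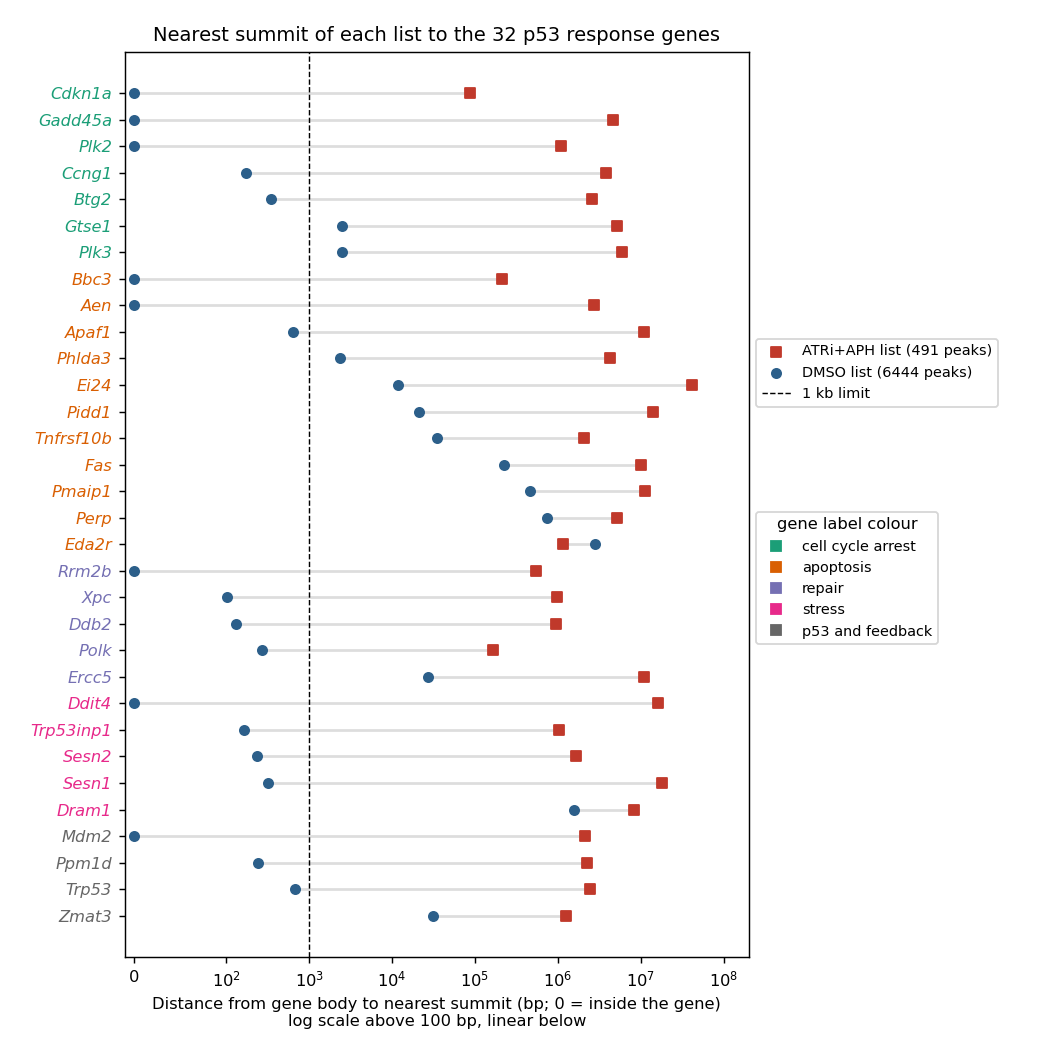
Distance in bp from each of the 32 gene bodies to the nearest summit, with squares for the ATRi+APH list, circles for the DMSO list and a dashed line at 1 kb; gene names are coloured by role. All squares lie at 88.0 kb or farther, 19 circles lie left of the line, and Eda2r is the gene whose square lies nearer than its circle.

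Sequences of the promoters under the strongest of these peaks are shown first, since 15 of 15 genes with a DMSO summit and an entry in the RefSeq promoter table (GRCm38.p6) had an annotated start inside the peak. The same share over all coding genes was not computed. The windows run from 250 bases before the start to 50 after it, on the gene's strand, and capitals mark the GC box GGGCGG on either strand, a motif bound by Sp family factors. Shown are the 4 genes of highest fold among those with a window in the table, and each window lay wholly inside its DMSO peak.
Plk2, chr13:110394794-110395093, plus strand: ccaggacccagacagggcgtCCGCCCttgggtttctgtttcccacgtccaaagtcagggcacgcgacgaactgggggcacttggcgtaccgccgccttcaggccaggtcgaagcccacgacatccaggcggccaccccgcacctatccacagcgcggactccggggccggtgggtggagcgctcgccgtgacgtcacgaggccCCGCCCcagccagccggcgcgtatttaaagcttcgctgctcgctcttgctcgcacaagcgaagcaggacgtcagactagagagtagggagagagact
Bbc3, chr7:16310181-16310480, plus strand: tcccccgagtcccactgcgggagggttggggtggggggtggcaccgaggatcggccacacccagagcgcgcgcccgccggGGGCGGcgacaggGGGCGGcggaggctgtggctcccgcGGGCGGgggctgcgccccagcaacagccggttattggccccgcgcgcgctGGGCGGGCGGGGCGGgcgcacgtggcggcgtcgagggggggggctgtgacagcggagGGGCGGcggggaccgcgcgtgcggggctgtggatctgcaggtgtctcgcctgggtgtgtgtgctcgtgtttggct
Sesn2, chr4:132510407-132510706, minus strand: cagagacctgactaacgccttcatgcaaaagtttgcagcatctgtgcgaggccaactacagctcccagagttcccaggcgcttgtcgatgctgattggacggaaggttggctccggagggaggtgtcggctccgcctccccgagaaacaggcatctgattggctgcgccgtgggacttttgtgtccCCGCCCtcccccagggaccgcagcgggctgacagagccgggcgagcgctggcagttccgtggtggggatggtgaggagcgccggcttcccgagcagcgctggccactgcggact
Ppm1d, chr11:85311004-85311303, plus strand: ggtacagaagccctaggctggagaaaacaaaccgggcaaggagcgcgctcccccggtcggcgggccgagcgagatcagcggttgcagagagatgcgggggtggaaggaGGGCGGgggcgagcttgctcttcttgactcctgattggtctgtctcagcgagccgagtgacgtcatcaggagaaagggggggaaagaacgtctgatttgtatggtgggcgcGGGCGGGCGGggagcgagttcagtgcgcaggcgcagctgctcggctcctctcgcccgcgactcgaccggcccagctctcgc

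The 4 windows were rich in G and C, at 66.3% (Plk2), 78.0% (Bbc3), 64.7% (Sesn2) and 66.0% (Ppm1d). They held 2, 7, 1 and 3 GC boxes in that order, counting overlapping matches. Over the 21 windows of the 15 genes with a DMSO summit the median G+C content was 66.0% and 76.2% held a GC box, and over the 10 windows of the 9 genes without one it was 61.3% and 7 of the 10 held it. Over all coding genes with a DMSO summit the median was 63.3% and 69.5% of windows held the box, and over all coding genes without one it was 53.7% and 37.7%. Over all coding genes together it was 56.3% and 46.2%, lower than for the listed genes with or without a DMSO summit. The part of promoter composition in the DMSO counts was not tested. Among the 9 genes without a summit that have a window, G+C content ran from 50.3% (Eda2r) to 72.7% (Dram1).

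Among the 7 genes of cell cycle arrest, 0 had an ATRi+APH summit (1.16% of all coding genes) and 5 had a DMSO summit (71.4%, against 23.8% of all coding genes). Plk2, a polo-like kinase that acts in the S-phase checkpoint, held the highest DMSO fold of all 32 genes. Its peak spanned chromosome 13, 110393308 to 110398727, with a fold of 16.1 over the caller's background, a −log10 q of 47.2 and a summit 49 bp inside the gene from its annotated start. Fold and −log10 q are the authors' values and were used to describe peaks within a list. Cdkn1a encodes p21, the inhibitor of cyclin-dependent kinases through which p53 halts the cycle in G1. Its DMSO peak (chromosome 17, 29093205 to 29097033) had a fold of 11.7, and its summit lay inside the gene, 4071 bp after the outermost annotated start and 1281 bp after the other. The peak covered the inner start and not the outer one.

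Gadd45a encodes a stress protein that binds the clamp PCNA and slows the G2 to M step. Its DMSO peak of 4652 bp (fold 11.9) covered the whole gene of 2312 bp, with the summit 544 bp inside from the start. Btg2, an antiproliferative co-regulator, and Ccng1, which encodes cyclin G1, had DMSO folds of 10.5 and 10.3, with summits 351 and 195 bp upstream of their starts. Plk3, a stress-responsive polo-like kinase, and Gtse1, a microtubule-associated protein that restrains p53, had no DMSO summit within the limit. Their nearest DMSO summits lay 2498 and 2480 bp away, nearer to the ends of Btbd19 and Trmu. The nearest ATRi+APH summits to the arrest genes lay between 88.0 kb (Cdkn1a) and 5.92 Mb (Plk3) away.

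Among the 11 genes of apoptosis, 0 had an ATRi+APH summit and 3 had a DMSO summit (27.3%), a share near the 23.8% of all coding genes. Over the other 21 genes the DMSO count was 16 (76.2%). The split by role was made with the results known, and the difference between the roles was not tested. Bbc3 encodes PUMA, a BH3-only protein that blocks pro-survival Bcl-2 family members. It had the widest DMSO peak of the 32 genes, 7070 bp (chromosome 7, 16308336 to 16315405), which covered 70.5% of the gene and 3 annotated starts. Its fold was 15.8 and its summit lay 2753 bp after the nearest of these starts. Aen, an exonuclease that helps degrade DNA in dying cells, had a DMSO fold of 11.7 with the summit 12 bp after an annotated start. Apaf1, the scaffold of the apoptosome, had a DMSO fold of 10.7 with the summit 633 bp upstream of its start and 639 bp from an end of the neighbouring gene Ikbip.

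Neither list had a summit at the death receptor genes Fas and Tnfrsf10b, at Pmaip1, which encodes the BH3-only protein NOXA, or at Perp, a membrane protein of the p53 death pathway. Fas, for example, lay 9.92 Mb from the nearest ATRi+APH summit and 223 kb from the nearest DMSO summit. The X-linked receptor gene Eda2r was the one gene of the 32 that lay nearer to an ATRi+APH summit (1.16 Mb) than to a DMSO summit (2.79 Mb). Ei24, an endoplasmic reticulum protein gene, lay 41.7 Mb and 11.7 kb from the nearest ATRi+APH and DMSO summits. Pidd1, the core of a caspase-2 complex, lay 14.0 Mb and 21.1 kb away. Phlda3, an inhibitor of the kinase Akt, lay 4.24 Mb from an ATRi+APH summit and 2353 bp from a DMSO summit.

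Among the 5 repair genes, 0 had an ATRi+APH summit (1.16% of all coding genes) and 4 had a DMSO summit (23.8% of all coding genes). Rrm2b encodes the p53-inducible subunit of ribonucleotide reductase, which makes deoxynucleotides, and had a DMSO fold of 13.9 with the summit 136 bp inside a gene end. Polk, a translesion DNA polymerase, and Ddb2, which recognises ultraviolet damage, shared a DMSO fold of 13.2, with summits 270 and 133 bp outside a gene end. Xpc, which starts global nucleotide excision repair, had a DMSO fold of 10.3 with the summit 103 bp outside an end. The summits at Polk and Xpc were nearer to an end of another gene, 140 bp from Cert1 and 44 bp from Lsm3. Ercc5, the XPG endonuclease of excision repair, had no summit, with an ATRi+APH summit 10.8 Mb away and a DMSO summit 27.3 kb away.

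Of the stress genes, also 5, 0 had an ATRi+APH summit and 4 had a DMSO summit, beside the same 1.16% and 23.8% of all coding genes. Sesn2 and Sesn1 encode sestrins, which restrain mTORC1 and oxidative damage, and had DMSO folds of 14.4 and 13.2, with summits 234 and 319 bp upstream of the outermost starts. The Sesn1 summit also lay 387 bp from an end of Cep57l1. Ddit4, which encodes REDD1, another inhibitor of mTORC1, had a DMSO fold of 12.7 and a peak over 72.7% of its 2096 bp. Trp53inp1, a cofactor of p53 in autophagy and death, had a DMSO fold of 11.2 with the summit 164 bp outside a gene end. Dram1, a lysosomal regulator of autophagy, lay 8.15 Mb from the nearest ATRi+APH summit and 1.54 Mb from the nearest DMSO summit.

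Of Trp53 and the 3 feedback genes, 0 had an ATRi+APH summit and 3 of the 4 had a DMSO summit, where 1.16% and 23.8% of all coding genes did. Trp53 itself had a DMSO peak of 4652 bp (chromosome 11, 69577804 to 69582455) with a fold of 10.5. The summit lay 679 bp upstream of the annotated start and 570 bp from an end of the neighbouring gene Wrap53. Mdm2, the ligase that marks p53 for degradation, had a DMSO fold of 11.96 (chromosome 10, 117709140 to 117712159), with the summit 811 bp inside the gene from its start. As background, the p53-responsive promoter of Mdm2 is the internal one, in its first intron. Ppm1d encodes the phosphatase WIP1, which switches off the ATM and p53 signals, and had a DMSO fold of 13.7 with the summit 239 bp upstream of the start. Zmat3, an RNA-binding target of p53, had no summit, with an ATRi+APH summit 1.26 Mb away and a DMSO summit 31.4 kb away, 5 bp from an end of Pik3ca.

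**Figure D2:**
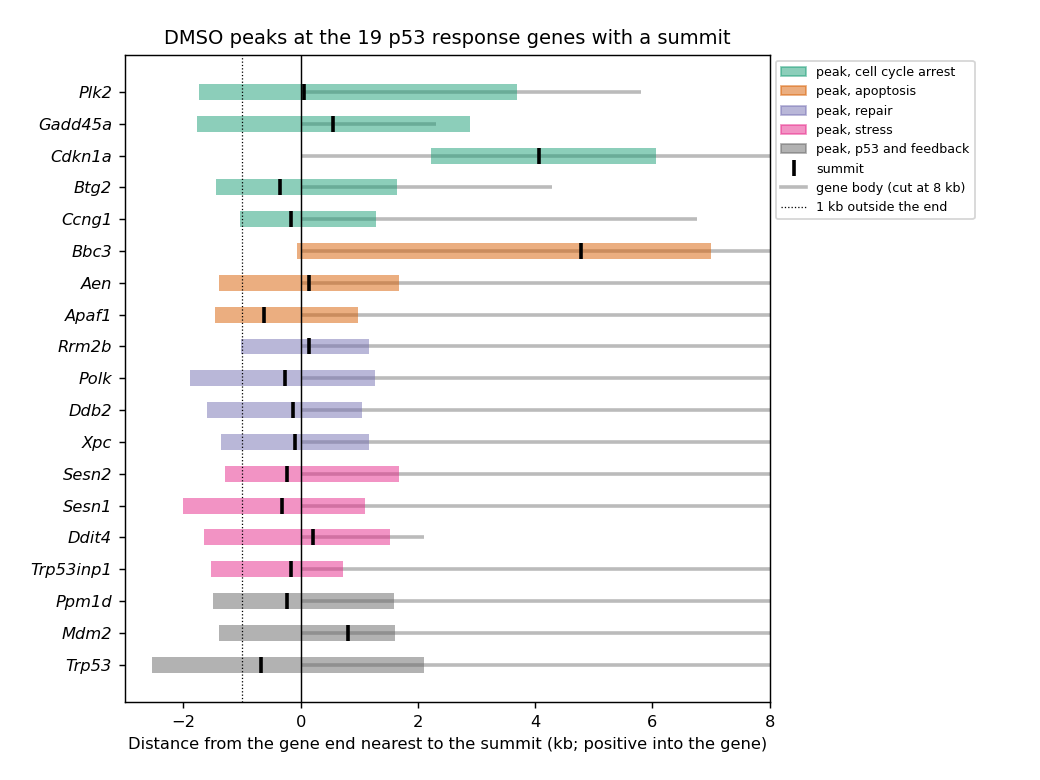
DMSO peaks (bars, coloured by role) and their summits (black ticks) at the 19 genes with a summit, drawn as distance in kb from the gene end nearest to the summit, with positive values inside the gene and grey lines for gene bodies. The summits of 17 genes lie within 1 kb of the end, and those of Cdkn1a and Bbc3 lie 4071 and 4786 bp inside.

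Each of the 19 genes held exactly 1 DMSO summit, as did 90.4% of all coding genes with one. The summit lay within 1 kb of a gene end at 17 genes (89.5%), and 81.9% of all coding genes with a DMSO summit had one as near an end. It lay inside the gene body at 8 genes and outside at 11. Of the 5213 coding genes with a DMSO summit, 2889 had one inside the body. Where the promoter table gives the strand, the gene end nearest to the summit was the start in 15 of 15 genes, and the summit lay within 1000 bp of an annotated start in 13 of them. Neither share was counted over all coding genes, so these counts are not read as particular to the p53 response genes. Another coding gene lay within 1 kb of the summit at 5 genes (Apaf1, Polk, Xpc, Sesn1 and Trp53), and there a peak cannot be assigned to 1 gene. How often this holds over all coding genes was not counted. The summits outside the body farthest from an end, just inside the limit of 1 kb, were those of Trp53 (668 bp) and Apaf1 (633 bp). The nearest beyond it were those at Phlda3, Gtse1 and Plk3 (2353 to 2498 bp).

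The coverage behind each peak was recovered from the caller's own fold and p-value. The 19 DMSO summits had 41 to 65 pull-down fragments, with a median of 51, against a median of 49 over all DMSO peaks and a genome background of 2.88. Exact Poisson 95% intervals ran from 29.4 to 55.6 fragments for Ccng1, the lowest, and from 50.2 to 82.8 for Plk2, the highest, so these intervals overlapped. The median over all DMSO peaks lay inside the interval of 17 of the 19 genes, and below that of Plk2 and Bbc3. The caller's background term is counted in input fragments, a different scale from the pull-down fragments above. On that scale the genome background of the list was 2.32, which corresponds to the 2.88 pull-down fragments. The term was at this genome background at 16 of the 19 genes. At the remaining genes, Gadd45a, Xpc and Trp53inp1, the term was 3, 2.45 and 2.40 input fragments. Overlap of intervals is not a test of a difference between genes. The order of folds among these genes was not tested and is not read further.

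**Figure D3:**
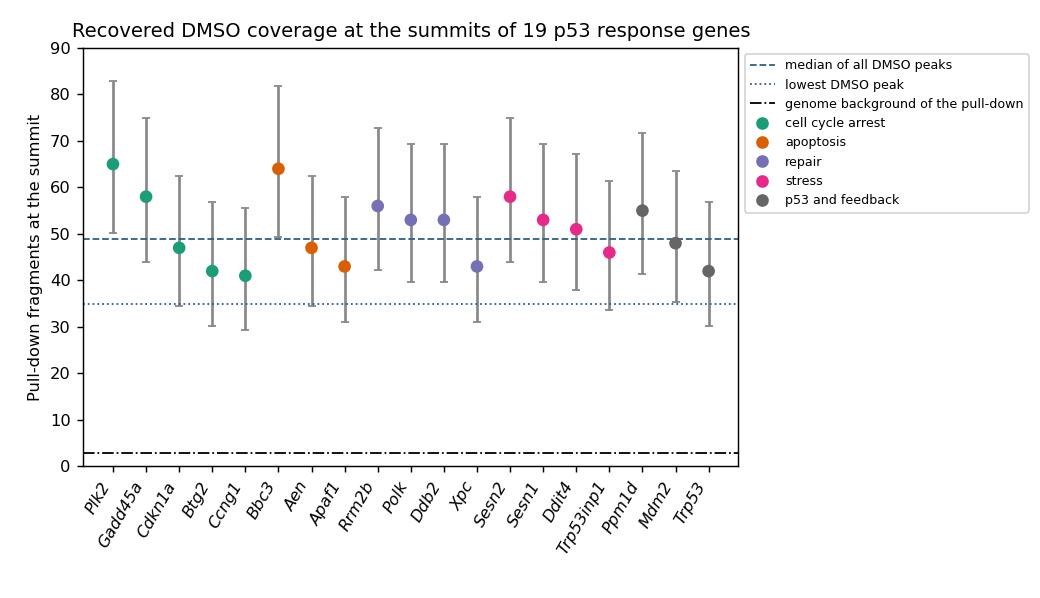
Pull-down fragments at the DMSO summit of each of the 19 genes, with exact Poisson 95% intervals as bars, and lines at the median of all DMSO peaks (49), the lowest DMSO peak (35) and the genome background of the pull-down (2.88). The values run from 41 to 65 fragments.

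The median fold of the 19 DMSO summits was 11.96. For the highest DMSO summit of each coding gene with one (5213 genes) it was 11.7, and over all DMSO peaks it was 10.99. Of the 19 peaks, 14 lay above the median fold of the list. Of the 5213 coding genes with a DMSO summit, 3128 had one at or above it. Plk2, the highest of the 19 by −log10 q, ranked 793 of 6444. When the DMSO list was cut to its 491 strongest peaks by −log10 q, the length of the ATRi+APH list, 0 of the 32 genes had a DMSO summit, and 2.31% of all coding genes did. With the 1000 strongest DMSO peaks 2 genes were counted (Plk2 and Bbc3), and 4.58% of coding genes. With 2000 it was 8 genes (25.0%), against 8.75% of coding genes. With 3000 and 4000 it was 11 and 15 genes, against 12.5% and 16.1%, and with 5000 it was 19 genes, against 19.5%. At 491 peaks the shares of all coding genes correspond to 0.371 (ATRi+APH) and 0.738 (DMSO) of 32 genes, so counts of 0 at that length do not separate the lists. The part of list length in the counts of 0 and 19 was not tested. These cuts other than that to 491 peaks were chosen after the data were seen. With all DMSO peaks, 8 genes were counted by the gene body alone (13.2% of coding genes), 22 with 10 kb on each side (29.9%) and 21 by overlap of the peak with the window (25.1%), and 14 with the peaks at or above the median fold (14.3%).

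**Figure D4:**
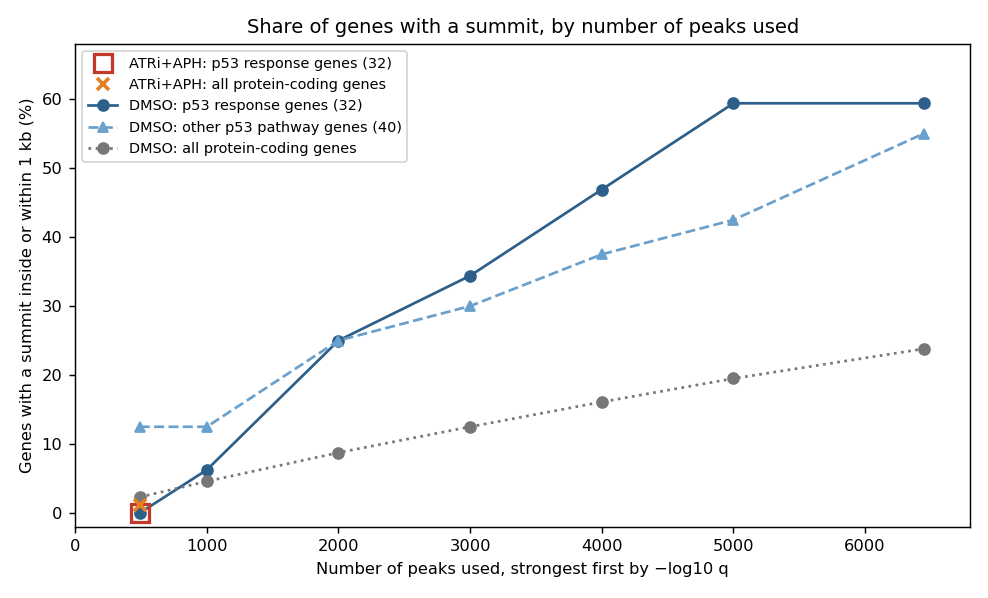
Percentage of genes with a summit inside or within 1 kb, against the number of peaks used from the strongest by −log10 q, for the ATRi+APH list (491 peaks; square, the 32 genes; cross, all coding genes) and the DMSO list (lines). At 491 peaks both lists count 0 of the 32 genes, and at 6444 DMSO peaks the share is 59.4% for the 32 genes, 55.0% for 40 other p53 pathway genes and 23.8% for all coding genes.

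Strength differed between the lists in other ways. The lowest −log10 q was 3.38 in the ATRi+APH list and 18.5 in the DMSO list, the median peak width was 454 and 2855 bp, and the pull-down background was 5.14 and 2.88 fragments. The lowest coverage at any summit was 35 pull-down fragments in both lists. A site with fewer in the ATRi+APH samples would not be seen, so 0 of 32 does not show that these genes lacked ends there. No ATRi+APH peak overlapped any of the 32 windows, even by 1 bp, by which 1.18% of coding genes were counted. The ATRi+APH count was also 0 with 10 kb on each side (1.78% of coding genes). It could only be 0 under the narrower rules. These were the gene body alone (0.759%), at or above the median fold (0.649%) and a −log10 q of at least 5 (0.539%). The nearest ATRi+APH summits were at a median distance of 2650 kb from the 32 genes and 2130 kb from all coding genes. Within 1 Mb of an ATRi+APH summit lay 6 of the 32 genes (18.8%) and 34.4% of all coding genes. The nearest DMSO summits were at medians of 0.335 kb and 66.9 kb.

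Of 13 genes without a DMSO summit within the limit, 12 had their nearest DMSO summit closer to the end of another coding gene, and at 11 that summit lay within 1 kb of such an end. Examples are Chmp7 beside Tnfrsf10b (34.8 kb away, fold 10.3), Stt3a beside Ei24 (11.7 kb, fold 9.29) and Bivm beside Ercc5 (27.3 kb, fold 14.9). The genes were picked out by having no summit within 1 kb, so a nearest summit by another gene is largely set by that choice. For scale, 81.9% of all coding genes with a DMSO summit had one within 1 kb of their own end.

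The p53 half-site consensus, the 10-base unit of which p53 binds a pair, was searched in the promoter windows, which held 24 of the 32 genes in 31 windows. It was found in 12 windows (38.7%) and in 7.37% of the windows of all coding genes. The list was made of genes tied to p53, so a higher share of matches is largely set by that choice. Sites were found for 11 genes, and 6 of the 10 sites at genes with a DMSO summit lay inside the DMSO peak. The windows surround annotated starts, and each of these peaks covered an annotated start. A site near a covered start is thus inside the peak largely through the choice of windows. The sites outside, at Cdkn1a, Polk and Sesn1, belong to starts that the peak did not cover. The same share over all coding genes was not computed. The 6 sites inside a peak are shown, with capitals for the match and lower case for the flanks.
Aen, chr7:78895927-78895956, plus strand: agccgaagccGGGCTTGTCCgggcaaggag
Ccng1, chr11:40755452-40755481, minus strand: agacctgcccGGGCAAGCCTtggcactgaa
Gadd45a, chr6:67037428-67037457, minus strand: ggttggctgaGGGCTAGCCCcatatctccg
Mdm2, chr10:117710925-117710954, minus strand: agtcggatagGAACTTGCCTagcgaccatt
Ppm1d, chr11:85311112-85311141, plus strand: gggcgggggcGAGCTTGCTCttcttgactc
Trp53, chr11:69580274-69580303, plus strand: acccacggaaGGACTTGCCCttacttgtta

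The DMSO summit lay 14 bp from the match at Ccng1, 112 bp at Ppm1d, 128 bp at Aen, 580 bp at Gadd45a, 609 bp at Trp53 and 993 bp at Mdm2. Both matches at Cdkn1a lay before its outer start, outside the DMSO peak and 4117 and 4139 bp from the summit. Plk2, Bbc3 and Sesn2, which had the highest DMSO folds of the 32 genes, had no match in any of their windows. A match is a description of the letters and not a bound site, and windows of 300 bases leave out sites elsewhere in the gene.

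Outside the 32 genes, 40 others of the pathway, also chosen with earlier results of these data known, were counted by the same rule. Of these, 0 had an ATRi+APH summit (exact interval up to 8.81%, against 1.16% of coding genes) and 22 had a DMSO summit (55.0%, interval 38.5 to 70.7%, against 23.8%). Of 14 regulators of p53, 8 had a DMSO summit. They were the kinase genes Atm (fold 11.7), Chek2 (11.2), Hipk2 (14.9) and Dyrk2 (11.96 and 11.7), the ligase gene Rchy1 (18.5), the p53 inhibitor gene Mdm4 (9.29), the acetyltransferase gene Kat5 (12.4), and Cdkn2a, which encodes p16 and ARF (14.6 and 9.53). The 6 regulators without one were Usp7, Trp53bp1, Ep300, Cop1, Trp63 and Trp73. Of 26 other targets, 14 had a DMSO summit, with folds from 8.80 (E2f7) to 20.2 (Dusp1, a MAP kinase phosphatase gene that growth signals also switch on).

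Thbs1, which encodes thrombospondin 1, had a DMSO fold of 19.5, and Klf4, a transcription factor gene, had 18.04. Among the 491 strongest DMSO peaks were those of 5 of the 40 genes, among them Rchy1, Thbs1, Klf4 and Dusp1, and of 0 of the 32. At that cut 2.31% of all coding genes were counted, a share at which 0.738 of 32 genes would be.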

How the data were processed

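BrITL pull-down and input DNA was sequenced by the authors, and 1 pooled peak list per condition was analysed here; per the peak names it set all pull-downs of a condition against its inputs. The submitters' processing notes name mm10, the tools MACS2 2.1.0, STAR 2.5.2a, Picard 1.141, SAMtools 0.1.19 and bcl2fastq 2.17.1.14, with no roles or settings. Per peak the deposited files give a score (the whole part of a multiple of −log10 p, checked in 100% of peaks), a fold enrichment ratio at the summit, −log10 p and −log10 q, and the summit's offset. How peaks were chosen for the lists is not stated in those notes, and the files hold no read totals.

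Summits were set against the gene bodies of the RefSeq table, which gives no strand; strand and starts came from the promoter table. The share of all coding genes counted by the same rule served as background, with no test. Pull-down coverage was recovered by inverting the MACS2 formulas for fold (pileup plus 1 over background plus 1) and Poisson p, accepting whole multiples of the scaling step within 0.02, which held for 100% of peaks. In the ATRi+APH list 2.44% of peaks and in the DMSO list 0.0155% had several solutions; the one at the background was taken first. The steps were tested on simulated data. Alternatives were the gene body alone, 10 kb on each side, overlap of at least 1 bp, and fewer peaks. All 32 genes were described; those with a summit were named with their peaks, and the rest by distance. The members, roles and lists were chosen with earlier results of these data known. Software was Matplotlib 3.10.9, pandas 2.3.3, SciPy 1.17.1, NumPy 2.4.6 and Python 3.11.15.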

Additional observations from a re-analysis of the deposited data

How the results depend on the processing

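The ATRi+APH count was 0 of 32 and 0 of 40 genes under every alternative run (gene body alone, 10 kb, overlap, at or above the median fold, −log10 q of at least 5). The gene body alone and the cuts on fold and −log10 q narrow a rule that already gave 0, so they could give no other count. With 10 kb and by overlap, the shares of all coding genes correspond to 0.569 and 0.377 of 32 genes. The DMSO count of 19 fell to 8 with the gene body alone, since 11 summits lie outside the body. That of 22 other pathway genes fell to 13, and the share of all coding genes from 23.8% to 13.2%. The counts were 22 and 25 with 10 kb on each side (29.9% of all coding genes), and 21 and 24 by overlap (25.1%). At or above the median fold they were 14 and 14 (14.3%). With the 491, 1000, 2000 and 3000 strongest DMSO peaks, 0, 2, 8 and 11 of the 32 genes were counted. Of the 40 genes it was 5, 5, 10 and 12, and of all coding genes 2.31%, 4.58%, 8.75% and 12.5%. Summits within 1 kb of a gene end numbered 17 of 19, with 13 at 500 bp and 17 at 2000 bp. The shares of all coding genes with a DMSO summit were 81.9%, 65.0% and 86.8%. No paired analysis was possible because the lists pool the replicates, and no replicate could be left out for the same reason. Coverage below 35 fragments at a summit was not seen in either list.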
